A study of Mus musculus with 19 samples.

Results

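The 10 macrophage genes described here were followed through 19 RNA-seq libraries of mouse mammary glands and mammary tumors. They are Adgre1, Csf1r, Csf1, Mrc1, Cd68, Cd163, Lyve1, Trem2, Spp1 and Arg1. The members were taken from a table of 46078 genes by matching Ensembl identifiers to these 10 symbols, and all 10 were found.

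The study asked how mutant p53 in stromal fibroblasts affects mammary tumors driven by the neu oncogene. Wild-type mice gave 3 mammary glands (MGWT). Tumor-bearing mice gave 4 glands without malignant lesions (MGN) and 4 tumors (TN) from N mice, and 4 glands (MGNP) and 4 tumors (TNP) from NP mice. NP mice carried MMTV-neu, Fsp-Cre and the conditional p53wm-R172H/+ allele. The 4 TN tumors and MGN replicate 1 carried MMTV-neu and Fsp-Cre, and MGN replicates 2, 3 and 4 carried MMTV-neu and p53wm-R172H/+ without Cre, so that the MGN group pooled both kinds of N mice. MMTV drives neu in mammary epithelium, Fsp-Cre drives the recombinase in fibroblasts, and the p53 allele makes wild-type p53 until Cre converts it. The mice with MMTV-neu were females of a mixed FVB, C57 and BALB/c background. The wild-type mice were described as age-matched. Their background and the age of each sampled mouse were not given in the sources used here. TNP replicates 1 and 2 have library names with a shared number, and whether they came from the same mouse is not stated.

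Macrophages are phagocytes that reside in most tissues or arise there from blood monocytes. Their survival depends on the receptor CSF1R, which binds CSF1 and IL34. In the mammary gland they lie around ducts and within the fat pad, where many carry the scavenger and lectin receptors CD163, CD206 (the product of Mrc1) and LYVE1. Macrophages of tumors and of lipid-rich lesions often make TREM2, a receptor for lipids and lipoproteins, osteopontin (Spp1) and arginase 1 (Arg1). Several of these genes are also used by other cells. Lyve1 marks lymphatic endothelium, Spp1 is made by epithelial tumor cells, Csf1 comes largely from fibroblasts, endothelium and epithelium, and Arg1 is also a myeloid and hepatic enzyme.

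Libraries differed in ways that the group labels do not name. The MGWT libraries held 54677315 to 62645459 reads on genes and the other 16 held 20899152 to 27262440. White adipocyte genes, a list of 9 that includes Adipoq and Plin1, took 0.00744% to 0.0116% of the reads in MGWT, 1.17% to 1.63% in MGN and 0.45% to 1.06% in MGNP, and at most 0.0261% in any tumor. The MGWT glands were thus poor in the genes of the fat pad in which gland macrophages lie, while 9 luminal epithelial genes took 0.317% to 0.363% of their reads and at most 0.113% in MGN and MGNP. No gene of either list was at 0 throughout a group. The 12 skeletal muscle genes took 1.78%, 8.67% and 4.75% of the reads in MGNP replicates 1, 2 and 4. The 5 B cell genes were highest in MGNP replicates 3 and 1 and MGN replicate 4, at 0.0493%, 0.0287% and 0.0244%. The part of these contents in the macrophage results was not tested except where a value is given.

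The windows upstream of 3 members are shown because their genes moved differently between glands and tumors: Mrc1 and Cd163 fell in both tumor groups and Trem2 rose in TNP, as described further on. Each window holds the 250 bases before a RefSeq gene start on GRCm38.p6, written 5′ to 3′ along the gene. Of the 10 members, 6 had such an entry. Capitals mark a PU.1 core (GAGGAA on either strand, so TTCCTC when read from the other) or an AP-1-like pattern. The latter is TGANTCA with any base at N, a pattern that reads the same on both strands. PU.1 is the factor that sets the macrophage lineage, and AP-1 is a group of factors induced by many stimuli.
Mrc1, chr2:14229164-14229413, + strand: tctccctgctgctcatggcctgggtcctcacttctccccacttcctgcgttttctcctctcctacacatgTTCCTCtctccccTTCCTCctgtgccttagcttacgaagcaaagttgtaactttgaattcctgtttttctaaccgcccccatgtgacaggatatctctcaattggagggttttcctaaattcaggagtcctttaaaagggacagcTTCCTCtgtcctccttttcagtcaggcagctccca
Cd163, chr6:124304401-124304650, + strand: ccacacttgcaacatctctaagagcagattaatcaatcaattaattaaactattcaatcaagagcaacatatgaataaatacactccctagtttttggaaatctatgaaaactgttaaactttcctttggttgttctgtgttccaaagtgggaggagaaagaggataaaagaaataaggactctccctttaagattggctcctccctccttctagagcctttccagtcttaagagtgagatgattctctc
Trem2, chr17:48346151-48346400, + strand: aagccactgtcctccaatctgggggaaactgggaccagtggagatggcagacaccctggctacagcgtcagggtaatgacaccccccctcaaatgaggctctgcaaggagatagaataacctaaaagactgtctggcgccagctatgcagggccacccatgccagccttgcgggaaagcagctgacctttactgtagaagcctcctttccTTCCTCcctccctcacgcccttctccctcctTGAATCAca
The Mrc1 window held 3 PU.1 cores, the Trem2 window held 1 PU.1 core and 1 AP-1-like pattern with A at its center, and the Cd163 window held neither. Of the windows not shown, that of Cd68, not called between tumor and gland, held 1 PU.1 core and 2 AP-1-like patterns. That of Csf1 held neither, and Spp1 had 1 PU.1 core and no AP-1-like pattern. Among 32851 mouse promoters of the same length, 23.3% held the PU.1 core and 6.7% the AP-1-like pattern. A MAF recognition motif (TGCTGA on either strand) was held by 16.1% of promoters and by 0 of the 3 windows. These are matches of letters and say nothing of whether a factor was bound.

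Adgre1 encodes F4/80, a surface receptor used to identify mouse macrophages. Its normalized counts, which are reads divided by the authors' size factor of each library, were 222, 290.4 and 306 in MGWT. They were 1728, 2526, 1311 and 1401 in MGN and 1005, 796.5, 1729.7 and 967 in MGNP. In tumors they were 967, 915, 1509 and 781 in TN and 770.2, 836, 1049.5 and 1146 in TNP. All 16 libraries from tumor-bearing mice were above all 3 MGWT glands. Among them every MGN gland was above every TNP tumor, and the ranges of all other pairs of groups overlapped. In bulk tissue such a difference can be more macrophages or more of this RNA in each, and these cannot be told apart.

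Adgre1 was 6.21-fold higher in MGN than in MGWT (log2 fold change 2.63 ± 0.24 (SE), limma adjusted p = 5.46e-05) and 3.97-fold higher in MGNP (1.99 ± 0.28, limma adjusted p = 0.00152). All fold changes here are on the log2(normalized count + 1) scale, and a gene was called where its adjusted p was under 0.05 and it changed at least 2-fold. Between tumors and their glands Adgre1 was not called. Its log2 fold change was -0.74 ± 0.26 in TN against MGN (limma adjusted p = 0.0432, short of the 2-fold threshold) and -0.20 ± 0.25 in TNP against MGNP.

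Csf1r, the receptor tyrosine kinase for CSF1 and IL34, stood at 896, 1332.5 and 1062 normalized counts in MGWT. It reached 5034, 9989, 3934 and 6877.5 in MGN and 5134, 2486.5, 4432 and 3106 in MGNP. The tumors had 2544, 1458, 3937 and 1622 in TN and 1890.3, 2157, 2619.8 and 2602 in TNP. MGN was high throughout, and its lowest gland (replicate 3) was level with the highest tumor (TN replicate 3).

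Csf1r was 5.61-fold higher in MGN than in MGWT (limma adjusted p = 0.000242) and 3.36-fold higher in MGNP (limma adjusted p = 0.0024). In TN it fell 2.75-fold below MGN (log2 fold change -1.46 ± 0.38, limma adjusted p = 0.0112). In TNP it was 1.58-fold below MGNP (-0.66 ± 0.24, limma adjusted p = 0.04), which did not reach the 2-fold threshold. On the opposite strand, exons of Hmgxb3 cover 873 of the 5774 exon bases of Csf1r, and whether counting used strand is not stated, so some of these reads may belong to either gene.

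Cd68, a lysosomal glycoprotein of macrophages, varied less. Its normalized counts were 278.5, 306 and 316 in MGWT, 732, 1699.8, 562.5 and 805 in MGN and 872, 317, 786 and 394 in MGNP. Tumors held 525, 919, 645 and 411 in TN and 550.5, 426, 565 and 863 in TNP. The other 16 libraries were above MGWT, though MGNP replicate 2, the gland richest in muscle genes, was at 317 against 316 in the highest MGWT gland.

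The rise of Cd68 in MGN was 2.88-fold (limma adjusted p = 0.00476). In MGNP it was 1.80-fold and was not called (limma adjusted p = 0.0988). Without the muscle-rich MGNP replicates 2 and 4, an alternative chosen after seeing the data, it was called with a log2 fold change of 1.46, and without replicate 2 alone at 1.11. Tumors were not called against the glands of the same mouse type (N or NP), with log2 fold changes of -0.53 ± 0.36 in TN and 0.10 ± 0.36 in TNP.

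The ligand gene Csf1 was highest in MGWT. Its normalized counts were 2737, 1994 and 3388.5 in MGWT, 1765, 3569.7, 1722 and 1649 in MGN and 1414.5, 1494.5, 1233 and 950.4 in MGNP. Tumors had 1122.5, 1779.6, 1735 and 1218 in TN and 1144, 1048, 1172 and 1318.5 in TNP. MGN replicate 2 stood well above the other MGN glands and above each MGWT gland, and all MGNP glands and all tumors lay below all of MGWT.

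Csf1 fell 2.11-fold in MGNP against MGWT (log2 fold change -1.08 ± 0.23, limma adjusted p = 0.00805) and was not called in MGN (-0.36 ± 0.30, limma adjusted p = 0.323). The MGNP value was at -0.90 without MGWT replicate 3 and at -0.94 without MGNP replicate 4, both short of 2-fold. Tumors were not called against their glands, at -0.52 ± 0.28 in TN and -0.10 ± 0.16 in TNP. The ligand gene was thus called in neither comparison of tumor with gland.

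The 3 resident markers peaked in the glands of tumor-bearing mice. Mrc1, the mannose receptor, had 225, 582 and 627 normalized counts in MGWT. It had 8950.3, 16582, 6193.5 and 7075 in MGN and 4800.4, 3608, 3557 and 4676 in MGNP. In tumors the counts were 1178, 540.5, 3394 and 778 in TN and 836, 1171, 1085 and 924 in TNP. The order was MGN, MGNP, then tumors, then MGWT, and the ranges of MGN and MGNP, and of MGNP and TN, did not overlap. TN replicate 3 was the tumor nearest to the glands.

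Mrc1 was 20.6-fold higher in MGN than in MGWT (limma adjusted p = 8.93e-05) and 9.46-fold higher in MGNP (limma adjusted p = 0.000634). It fell 7.88-fold in TN against MGN (log2 fold change -2.98 ± 0.55, limma adjusted p = 0.00234) and 4.14-fold in TNP against MGNP (-2.05 ± 0.16, limma adjusted p = 3.06e-05).

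Cd163, the hemoglobin scavenger receptor, had the widest range of the resident markers. Its normalized counts were 40.5, 52.7 and 28.9 in MGWT, 3122, 7914, 2675 and 4633 in MGN and 2205, 2338, 2154 and 3530.4 in MGNP. Tumors had 167, 52.7, 708 and 170.4 in TN and 205, 323, 227 and 267 in TNP. Every gland of a tumor-bearing mouse was above every tumor, and TN replicate 2 was level with the highest MGWT gland.

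Relative to MGWT, Cd163 was 103-fold higher in MGN (log2 fold change 6.69 ± 0.37, limma adjusted p = 5.41e-06) and 61.7-fold higher in MGNP (5.95 ± 0.27, limma adjusted p = 2.3e-05). It fell 23-fold in TN (-4.52 ± 0.70, limma adjusted p = 0.00105) and 9.9-fold in TNP (-3.31 ± 0.21, limma adjusted p = 1.33e-05) against their glands. The TN value was -3.94 without TN replicate 2 and -5.18 without TN replicate 3, and was called both times.

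Lyve1, a hyaluronan receptor of perivascular macrophages and of lymphatic vessels, stood at 112, 368 and 316 normalized counts in MGWT. It was at 1695, 2732, 701 and 819.8 in MGN and 907, 538, 487 and 652 in MGNP. Tumors had 52.3, 16.9, 158.5 and 40.8 in TN and 54.9, 134, 57.2 and 47.4 in TNP. It was the resident marker whose tumor levels lay below MGWT for most libraries, with TN replicate 3 and TNP replicate 2 inside the MGWT range.

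Lyve1 fell 25.5-fold in TN against MGN (limma adjusted p = 0.000765) and 9.25-fold in TNP against MGNP (limma adjusted p = 0.000152). It was 5.4-fold higher in MGN than in MGWT (limma adjusted p = 0.00606) and 2.66-fold higher in MGNP (log2 fold change 1.41 ± 0.43, limma adjusted p = 0.0317). The MGNP call was lost when any of 4 single libraries was left out. Its adjusted p was 0.0605 and 0.052 without MGWT replicates 1 and 3, and 0.0685 and 0.0587 without MGNP replicates 1 and 4. Lymphatic endothelial genes moved with Lyve1 between gland and tumor: of 6 such genes, 5 fell in TN and 4 in TNP, and their summed share of the reads was 0.00296% to 0.0219% in MGN and MGNP against 0.001% to 0.00501% in tumors. In MGWT that share was 0.0172% to 0.0175%, so it was not lower there as Lyve1 was. Their part in the Lyve1 result was not tested.

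**Figure D1:**
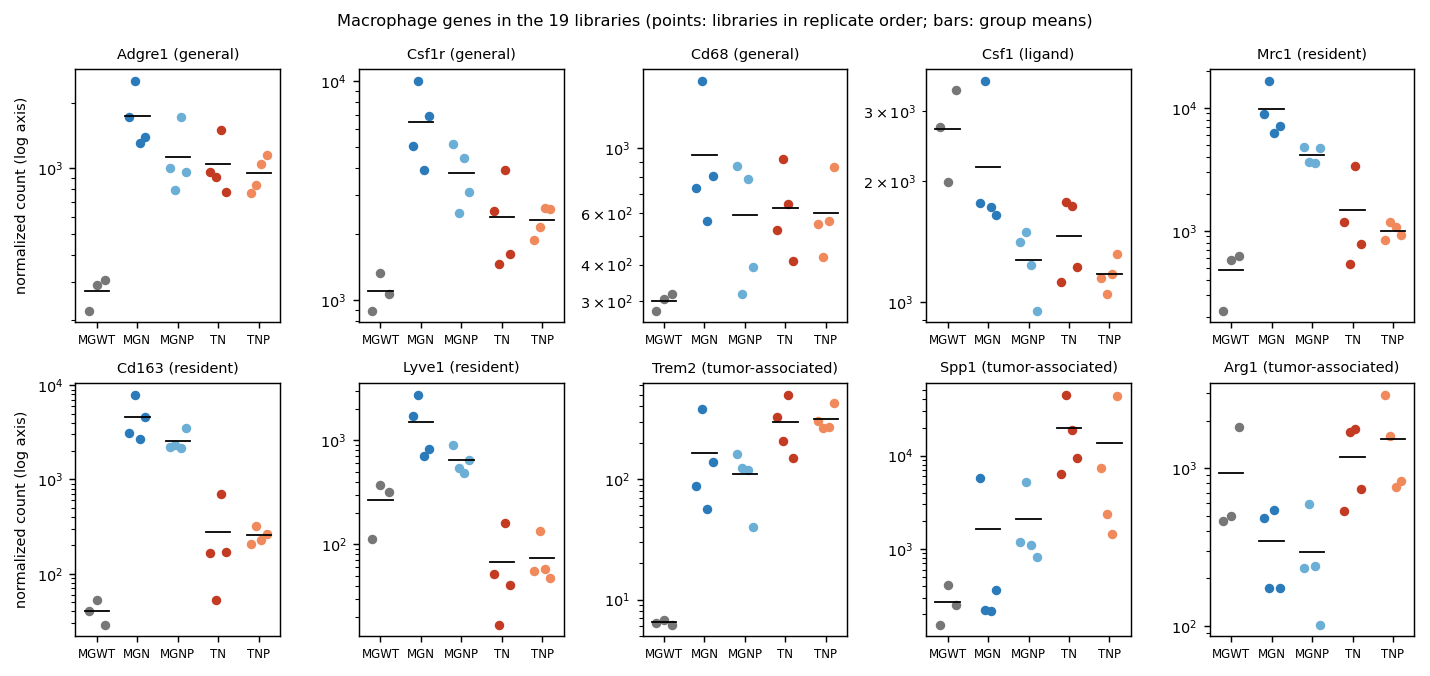
Normalized counts (log axis, a scale of its own in each panel) of the 10 members in each library of MGWT (3), MGN, MGNP, TN and TNP (4 each), with bars at the group means. Mrc1, Cd163 and Lyve1 peak in the MGN and MGNP glands, Trem2 is lowest in MGWT at 6.2 to 6.8, and Spp1 spreads from 1431 to 44900.0 among tumors.

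Trem2 was close to absent in wild-type glands. It had 6.4, 6.8 and 6.2 normalized counts in MGWT, which were 15, 14 and 12 reads in those deeper libraries. It had 87.9, 380.4, 56.3 and 138 in MGN and 160.2, 123, 118 and 40.0 in MGNP. Tumors had 327, 206.5, 499.9 and 149 in TN and 303, 263.5, 269 and 429.5 in TNP. Tumors were the highest groups, but MGN replicate 2 was above 6 of the 8 tumors.

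Trem2 was 17.2-fold higher in MGN (limma adjusted p = 0.000543) and 13.3-fold higher in MGNP (limma adjusted p = 0.0011) than in MGWT. It rose a further 3.13-fold in TNP against MGNP (log2 fold change 1.65 ± 0.42, limma adjusted p = 0.00969), with no overlap of the groups. In TN against MGN the log2 fold change was 1.06 ± 0.60 and was not called (limma adjusted p = 0.167). Without MGN replicate 2 it was 1.59 and called (limma adjusted p = 0.0309). With the skeletal muscle score added to the model, the TNP value was 1.33 and not called (limma adjusted p = 0.212). That score, the mean log2 value of 12 muscle genes, was 3.11 to 8.64 in TNP and 9.32 to 17.33 in MGNP. The groups did not overlap in it, so this fit cannot fully tell muscle content from group.

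Spp1, the secreted phosphoprotein osteopontin, had the largest counts and the largest spread. It had 154, 412 and 250.6 normalized counts in MGWT, 5725, 223, 215 and 359 in MGN and 1185, 5233, 1099 and 813.5 in MGNP. Tumors had 6413.5, 44900.0, 18588 and 9485 in TN and 7381, 2362, 1431 and 43324 in TNP. A single gland in each of MGN (replicate 1, the only Fsp-Cre gland of the group) and MGNP (replicate 2) reached tumor levels, and TNP held both the lowest and the second highest of the tumors.

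Spp1 rose 26.7-fold in TN against MGN (log2 fold change 4.74 ± 1.07, limma adjusted p = 0.00615) and was 3.73-fold higher in TNP than in MGNP without being called (1.90 ± 1.04, limma adjusted p = 0.148). Single libraries decided these sizes. In TN the log2 fold change was 5.86 (57.9-fold) without MGN replicate 1. In TNP it was 0.93 (1.90-fold) without TNP replicate 4, 2.57 without TNP replicate 3 and 2.49 without MGNP replicate 2, and it was not called in any of these. Spp1 was higher in MGNP than in MGWT (2.60 ± 0.66, limma adjusted p = 0.0151) and not called in MGN (1.15 ± 1.08). Without MGNP replicate 2 the MGNP value was 2.01, and without MGN replicate 1 the MGN value was 0.037. The MGNP call was lost without MGWT replicate 1 (limma adjusted p = 0.063) or replicate 3 (0.0523). MGN replicate 1 also had the highest share of reads on 7 milk protein genes in its group, 0.691% against 0.0103% to 0.0498% in the other MGN glands. MGNP replicate 2 had 0.0849% on them, below 0.239% and 0.444% in MGNP replicates 1 and 3 and above 0.0142% in replicate 4. Luminal epithelial genes took 0.0877% in MGN replicate 1, against 0.113% in replicate 3 and 0.0525% and 0.0627% in replicates 2 and 4. The part of epithelial content in Spp1 was not tested. Exons of the predicted gene Gm42793 share 309 of the 1648 exon bases of Spp1 on the same strand, so that reads there could be assigned to either.

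Arg1, which splits arginine into ornithine and urea, was at 466, 496 and 1819 normalized counts in MGWT. It was at 484, 175, 546 and 173 in MGN and 235, 592, 240.5 and 102.01 in MGNP. Tumors had 538.5, 1693, 1762 and 739.9 in TN and 2922, 1592, 758.5 and 831.5 in TNP. The tumors were above the glands of tumor-bearing mice, except that TN replicate 1 at 538.5 lay below MGN replicate 3 at 546 and MGNP replicate 2 at 592, and MGWT replicate 3 was above all TN tumors.

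Arg1 rose 3.48-fold in TN against MGN (log2 fold change 1.80 ± 0.53, limma adjusted p = 0.02) and 5.39-fold in TNP against MGNP (2.43 ± 0.58, limma adjusted p = 0.00727). Its adjusted p in TN was 0.0554, 0.0566 and 0.0508 without MGN replicate 2, MGN replicate 4 and TN replicate 2. With the muscle score added to the model, the TNP value was 1.67 and not called (limma adjusted p = 0.238), with the limit given for Trem2. Against MGWT the glands were not called, at -1.32 ± 0.60 in MGN and -1.63 ± 0.68 in MGNP (limma adjusted p = 0.0897 and 0.084).

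Per kilobase of exon the leading members changed from tissue to tissue. The length was that of all annotated exons of a gene joined, 4946 bases for Trem2. A gene whose main transcript is shorter is set too low, so the ranks depend on this length. In MGN Mrc1 was highest with 1523 ± 742 (SD, n = 4) normalized counts per kilobase, followed by Csf1r with 1119 ± 459, Spp1 with 989 ± 1657 and Cd163 with 840 ± 434. The place of Spp1 rests on MGN replicate 1, at 3474 per kilobase, without which its mean was 161 ± 49.3 (n = 3) and below those of Cd163, Cd68 and Adgre1. In TN Spp1 led with 12043 ± 10609, and Mrc1, Cd163 and Lyve1 stood at 231 ± 205, 50.3 ± 53.9 and 23 ± 21.5. By this length Trem2 was the lowest member in MGN with 33.5 ± 29.7, and in tumors, at 59.8 ± 31.3 in TN and 63.9 ± 15.7 in TNP, its mean was above those of Cd163 and Lyve1. In MGWT the ligand Csf1 was the highest member, with 513 ± 132 per kilobase (n = 3), and Trem2 was the lowest with 1.31 ± 0.0655.

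Glands of tumor-bearing mice differed from wild-type glands in most of these genes. In MGN, 7 of the 10 members were called higher than in MGWT and 0 lower, where 37% of all genes tested were called, 19.1% higher and 17.9% lower. The 7 were the general markers Adgre1, Csf1r and Cd68, the resident markers Mrc1, Cd163 and Lyve1, and Trem2. In MGNP 7 members were called higher and Csf1 lower, where 32.6% of genes were called, 16.4% higher and 16.2% lower. Cd68 was no longer among them and Spp1 was. The comparisons share the 3 MGWT glands, so that they are not independent of each other.

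The 7 members called higher in MGN had groups that did not overlap, as had 61.3% of all genes (31.5% higher and 29.8% lower), and each reached the smallest two-sided exact permutation p that 4 against 3 samples allow, 0.0286. Adjusted over all genes that exact permutation p was 0.0586. In MGNP the groups of 9 members did not overlap, 8 higher and 1 lower, against 54.4% of all genes (26.5% higher and 27.9% lower). With the muscle score added to the model, 3 members were called in MGNP, Adgre1, Csf1r and Cd163, where the share of all genes called fell from 32.6% to 8.86%. The score was 2.65 to 3.01 in MGWT and 9.32 to 17.33 in MGNP. It thus parts these groups, and the fit cannot fully tell muscle content from group. Without MGWT replicate 3 the count was 5, where 25.3% of all genes were called, and without MGNP replicate 2 it was 10, where 31.7% were. Depth, the near absence of adipocyte genes and the high share of epithelial genes all set the MGWT libraries apart, and these cannot be told apart from genotype.

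Tumors and the glands of the same mouse type (N or NP) differed in the kind of macrophage gene. All TN tumors carried Fsp-Cre, and MGN replicates 2, 3 and 4 carried the p53 allele without Cre. Tissue and genotype thus cannot be fully told apart in TN against MGN. In TN the resident markers Mrc1, Cd163 and Lyve1 and the receptor gene Csf1r fell, while Spp1 and Arg1 rose: 4 members lower and 2 higher, where 35.1% of all genes were called (22.3% lower and 12.8% higher). In TNP Mrc1, Cd163 and Lyve1 fell and Trem2 and Arg1 rose, where 38.7% were called (24% lower and 14.7% higher). Adgre1, Cd68 and Csf1 were called in neither. The median log2 fold change of the members was -0.64 in TN and -0.15 in TNP, and that of all genes was -0.05 and -0.07.

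In TN the groups of 4 members did not overlap, 1 higher and 3 lower, as did those of 49.2% of all genes (22.7% higher and 26.4% lower). In TNP those of 5 did not, 2 higher and 3 lower, against 52.6% of all genes (25.2% higher and 27.4% lower). With 4 against 4 samples the smallest two-sided exact permutation p is again 0.0286, which adjusted over all genes became 0.0581 in TN and 0.0543 in TNP. The falls of Mrc1, Cd163 and Lyve1 held in all fits run. With the muscle score added to the model, the TNP count was 3, all lower, and Trem2 and Arg1 were not called, where the share of all genes called was 23.6%. TNP and MGNP did not overlap in that score, so this fit cannot fully tell muscle content from group. White adipocyte genes fell in both comparisons, 9 of 9, vascular endothelial genes fell 6 of 6, and luminal epithelial genes rose 7 of 9 in TN and 8 of 9 in TNP. Their part in the macrophage results was not tested.

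**Figure D2:**
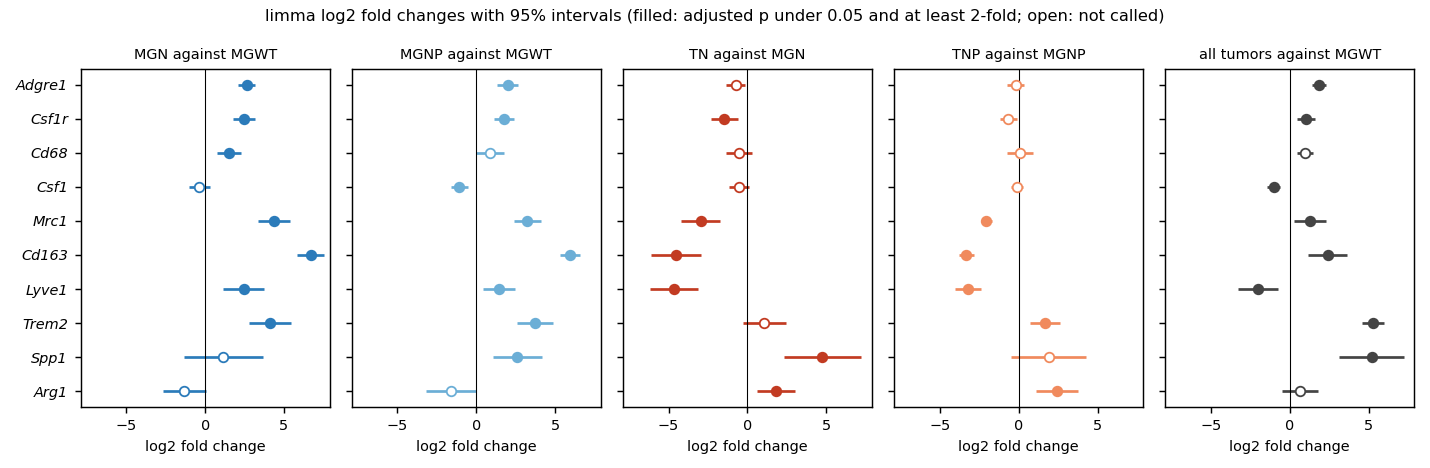
Log2 fold change of each member with its 95% interval (limma) in 5 comparisons, with filled points where the gene was called. The resident markers lie to the right of 0 in glands against MGWT and to the left in tumors against glands, where Cd163 is at -4.52 in TN and -3.31 in TNP.

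Measured against MGWT instead of the glands of tumor-bearing mice, the 8 tumors had more of most members. Adgre1 (3.6-fold), Csf1r (2.08-fold), Mrc1 (2.45-fold), Cd163 (5.29-fold), Trem2 (38.6-fold) and Spp1 (36.7-fold) were higher and Csf1 (2.04-fold) and Lyve1 (4.05-fold) lower: 6 higher and 2 lower, where 45.3% of all genes were called (18.8% higher and 26.5% lower). The resident markers thus did not move as a set here, with Cd163 and Mrc1 above wild-type levels and Lyve1 below them. Trem2 had the lowest limma adjusted p of the members, 1.46e-07. The smallest two-sided exact permutation p for 8 against 3 samples, 0.00606, was reached by 6 members. Those 6 were the members whose groups did not overlap, 5 higher and 1 lower, as did those of 54.2% of all genes (25.3% higher and 28.9% lower).

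Several of these calls rest on single libraries. Csf1r was at a log2 fold change of 0.92 and Mrc1 at 0.82 (limma adjusted p = 0.185) without MGWT replicate 1. Lyve1 had an adjusted p of 0.0612 and 0.0523 without MGWT replicates 2 and 3. Csf1 was at -0.85 without MGWT replicate 3 and -0.99 without TNP replicate 2, Csf1r at 0.94 without TN replicate 3, and all 3 of these were short of 2-fold. Cd68, at 0.97 in the comparison as made, was called without MGWT replicate 3, TN replicate 4 or TNP replicate 2 at 1.01, 1.05 and 1.04.

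Mutant p53 in fibroblasts was the question of the study, and no member was called between the genotypes. Between MGNP and MGN 0 of 10 members were called, where 0% of 18563 genes were. Mrc1 had the lowest p of the members, with a log2 fold change of -1.12 ± 0.30 (95% interval -1.81 to -0.44), an unadjusted limma p of 0.00505 and an adjusted p of 0.327, and its groups did not overlap. Csf1 was at -0.71 ± 0.27 with no overlap, and 6.21% of all genes had groups that did not overlap (2.06% higher and 4.15% lower). Unadjusted limma p-values were under 0.05 for 3 members and for 10.5% of all genes, and 9 of the 10 fold changes were negative. DESeq2 on the recovered reads called 1 member, Mrc1, lower (log2 fold change -1.19, DESeq2 adjusted p = 0.0168), where it called 2.92% of 17747 genes with an adjusted p, and edgeR called 0 members and 0% of genes. Tissue contents moved in the same comparison, though 0 of their genes were called. All 12 skeletal muscle genes had an unadjusted p under 0.05 (list median 6.17), as had 5 of 8 fibroblast genes (-1.0) and 5 of 9 white adipocyte genes (-0.83). Fibroblast genes took 0.497% to 1.79% of the reads in MGN and 0.21% to 0.628% in MGNP. With the muscle covariate 0 members and 0% of all genes were called, the same as without it, so this count says nothing of muscle content. The part of these contents in the values of the members was not tested.

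Between TNP and TN 0 of 10 members were called, where 0.0421% of 16638 genes were (0.0361% higher and 0.00601% lower), and 0 had an unadjusted limma p under 0.05, where 7.27% of genes had. DESeq2 and edgeR also called 0 members, and 0.515% and 0% of genes. The groups overlapped for all 10, and 4.21% of all genes had groups that did not overlap (2.64% higher and 1.57% lower). The intervals were narrowest for Csf1 (-0.71 to 0.12 on the log2 scale) and Adgre1 (-0.62 to 0.41) and widest for Spp1 (-3.73 to 0.95). For Mrc1 the interval ran from -1.30 to 0.91 and for Trem2 from -0.62 to 1.05. A 2-fold difference lay outside the interval for Adgre1, Csf1r, Cd68 and Csf1 and inside it for the other 6 members.

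The difference between the genotypes in the step from gland to tumor was tested as an interaction over the 16 samples of MGN, MGNP, TN and TNP. It was called for 0 of 10 members (0% of all genes), and 0 had an unadjusted limma p under 0.05, where 7.93% of genes had. The estimates were 0.93 ± 0.61 for Mrc1, 1.22 ± 0.78 for Cd163 and 1.46 ± 0.81 for Lyve1, and -2.84 ± 1.60 for Spp1. The call of Csf1r and Spp1 in TN only, and of Trem2 in TNP only, is therefore not a difference shown between the genotypes.

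To follow the members apart from the general macrophage signal, each was set against Adgre1 of the same library. Per 100 normalized counts of Adgre1, Mrc1 was at 538 ± 81.3 (SD, n = 4) in MGN and 405 ± 134 in MGNP, and at 126 ± 70.7 in TN, 108 ± 24.5 in TNP and 169 ± 58.6 (n = 3) in MGWT. Cd163 was at 257 ± 75.8 in MGN and 250.6 ± 103 in MGNP against 22.9 ± 17.4 in TN, 27.6 ± 7.69 in TNP and 15.3 ± 5.05 in MGWT. Both ratios were low in tumors and in wild-type glands. For Cd163 all MGN and MGNP glands were above all other libraries, and for Mrc1 MGNP replicate 3, at 206, was below TN replicate 3 at 225.

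The ratio of Lyve1 to Adgre1 divided the samples otherwise. It was 93.6 ± 39 in MGWT, 79.5 ± 27.6 in MGN and 63.3 ± 25.8 in MGNP, and 5.75 ± 3.57 in TN and 8.19 ± 5.38 in TNP. All 11 glands were above all 8 tumors, whose highest value was 16.1. Trem2 per 100 of Adgre1 went from 2.42 ± 0.433 in MGWT through 8.57 ± 4.97 in MGN and 10.6 ± 5.99 in MGNP to 27.2 ± 7.43 in TN and 33.5 ± 6.2 in TNP, and here all tumors, the lowest at 19.1, were above all glands, the highest at 15.9. Cd68 per 100 of Adgre1 was 52.5 ± 12.1 in MGN, 53.2 ± 22.5 in MGNP, 62.5 ± 25.8 in TN and 62.9 ± 12.3 in TNP, ranges that overlapped, with MGWT above them at 111 ± 12.3. Spp1 and Arg1 per 100 of Adgre1 did not part all tumors from all glands. Spp1 was at 2005 ± 1954 in TN and 1289 ± 1698.5 in TNP. It was at 97.8 ± 38.6 in MGWT, 95.5 ± 157 in MGN and 231 ± 285 in MGNP. MGNP replicate 2, at 657, was above TNP replicates 2 and 3, at 283 and 136. Arg1 was at 325 ± 234 in MGWT, 113 ± 54.3 in TN and 179 ± 145 in TNP. In MGN it was at 22.2 ± 15.7 and in MGNP at 30.5 ± 29.7. These ratios are descriptions, and no test was made of them.

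**Figure D3:**
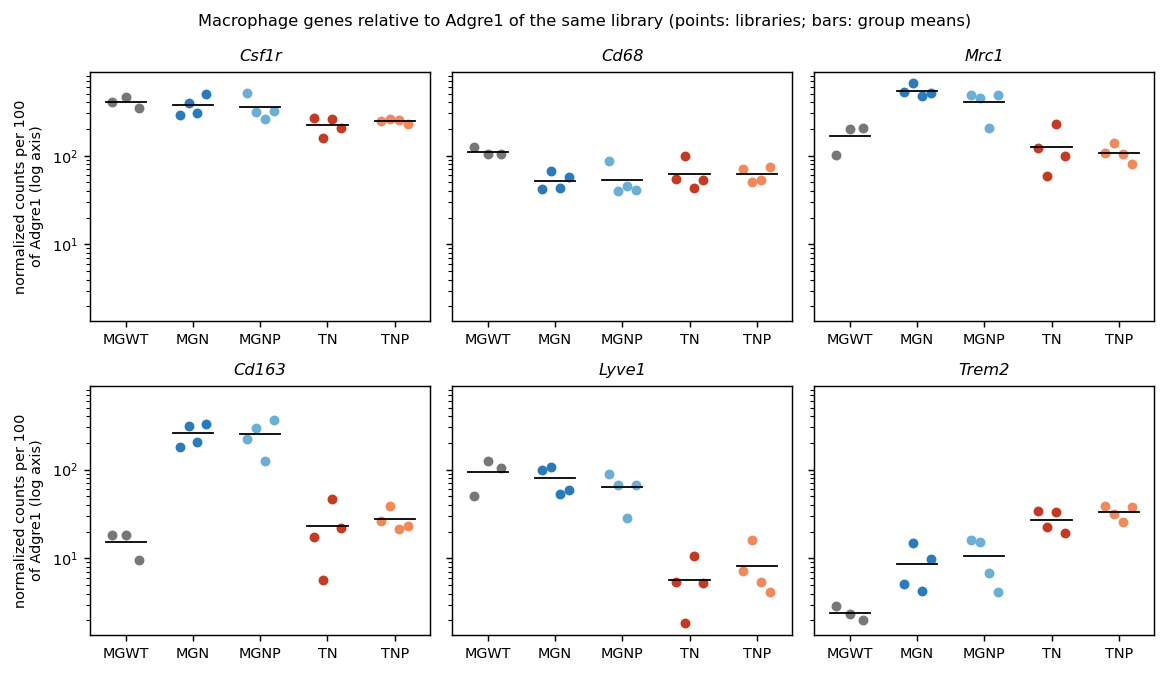
Normalized counts of 6 members per 100 normalized counts of Adgre1 in the same library (log axis), by group, with bars at the group means. Trem2 of all tumors lies above that of all glands and Lyve1 of all tumors lies below it, while Cd163 is highest in MGN and MGNP.

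The balance of the 2 kinds of marker was summarised in each library as the mean log2(normalized count + 1) of Mrc1, Cd163 and Lyve1 minus that of Trem2, Spp1 and Arg1. It was 0.52 ± 0.37 (SD, n = 3) in MGWT, 3.71 ± 0.95 (n = 4) in MGN, 2.48 ± 1.10 in MGNP, -2.89 ± 1.42 in TN and -2.36 ± 1.08 in TNP. All 11 glands were above 0, from 0.29 to 4.85, and all 8 tumors were below it, from -4.96 to -1.43. MGNP replicate 2, the gland with the most muscle genes and the Spp1 peak of its group, was the lowest of the glands of tumor-bearing mice at 1.19. Since the markers were chosen with earlier results known, this is a description.

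**Figure D4:**
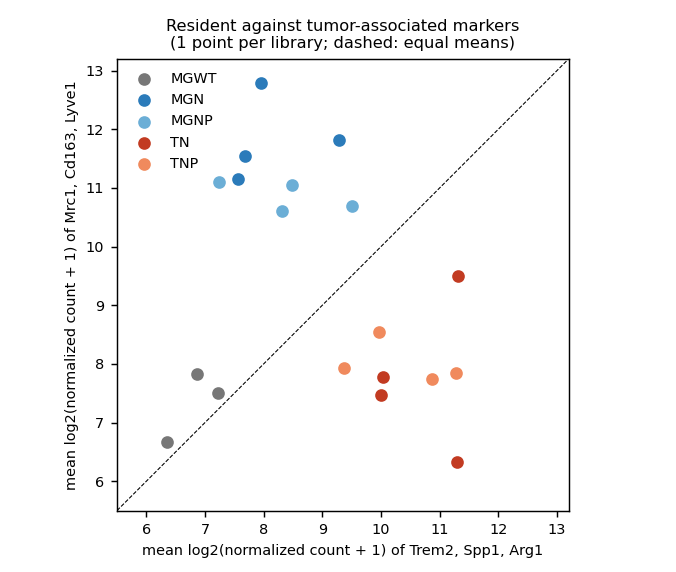
Mean log2(normalized count + 1) of Mrc1, Cd163 and Lyve1 against that of Trem2, Spp1 and Arg1, with 1 point per library and a dashed line where both are equal. All 8 tumors lie below the line and all 11 glands above it.

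Among members, levels ran together within the resident group, though not only there. Over the 19 libraries Pearson's r of log2 values was 0.96 between Mrc1 and Cd163, 0.80 between Mrc1 and Lyve1 and 0.74 between Cd163 and Lyve1. After the group means were subtracted these were 0.79, 0.93 and 0.75. The general marker Csf1r ran with them too, at 0.94 with Mrc1, 0.91 with Cd163 and 0.65 with Lyve1. After subtraction those of Csf1r were 0.77, 0.69 and 0.68. The tumor-associated markers were less alike, with 0.63 between Trem2 and Spp1, 0.14 between Trem2 and Arg1 and 0.50 between Spp1 and Arg1, and 0.06, -0.05 and 0.39 after subtraction. Trem2 then went with Csf1r (0.77) and Csf1 (0.67). These libraries share tissue content and differ in depth, and the coefficients are descriptions over n = 19.

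The genes outside the 10 with the pattern most like a member were ranked by the same r among 14822 genes with a mean of at least 50 normalized counts. For Adgre1 they were Nxpe5 (0.97), Wfdc17 (0.95), Snx2 (0.95), the complement gene C1qa (0.94) and the Fc receptor-like gene Fcrls (0.94), which lies on the list of resident genes. For Mrc1 they were Ugt1a7c (0.98), the ficolin gene Fcna (0.97), the chemokine genes Ccl6 (0.97) and Ccl9 (0.97) and the lectin gene Cd209g (0.97). For Trem2 they were Cnpy4 (0.95), Arpc3 (0.95), Ms4a7 (0.94), the lysosomal protease gene Lgmn (0.94) and Gm5526 (0.94). Group means carried part of this: after their subtraction the r of Fcrls with Adgre1 was 0.54 and that of Arpc3 with Trem2 was 0.52, while those of the Mrc1 group stayed at 0.84 to 0.89. Ugt1a7c shares exons with other genes of its locus and Cd209g has close paralogs, so that their counts are uncertain.

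Other genes of resident macrophages moved as Mrc1 and Cd163 did. Of 20 on a list that holds none of the 10 members, 18 of the 19 tested fell in TN and 0 rose, with a median log2 fold change of -3.45, and 16 of 20 fell in TNP with a median of -3.04. Of all genes 22.3% were called lower and 12.8% higher in TN, and 24% and 14.7% in TNP. The deepest falls in TN were those of Retnla (-6.63), an alternative activation product, the lectin gene Mgl2 (-6.16) and the phosphatidylserine receptor gene Timd4 (-5.65). In TNP they were Retnla (-5.21), Ccl24 (-4.45) and Mgl2 (-4.34). Smaller falls were those of Gas6 (-1.07 in TN and -1.22 in TNP) and of Fcrls in TN (-1.21). Against MGWT 16 of 20 were higher in MGN, with a median of 4.87 led by Retnla (8.32), F13a1 (6.31) and Fcrls (6.25), and 16 higher and 1 lower in MGNP. Of all genes 19.1% were called higher and 17.9% lower in MGN, and 16.4% and 16.2% in MGNP.

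Levels show the size of this. Retnla averaged 12.8 ± 4.65 (SD, n = 3) normalized counts in MGWT, 4663 ± 2608 in MGN, 2199 ± 441 in MGNP, 96.7 ± 101.6 in TN and 69 ± 42.8 in TNP. Timd4, by contrast, averaged 574 ± 334 in MGWT and 577 ± 313 in MGN, and was 13.3 ± 10.4 in TN and 20 ± 24.9 in TNP. Fcrls stayed at 518 ± 252 in TN and 426 ± 59 in TNP, against 13.8 ± 4.14 in MGWT and 1139 ± 402 in MGN.

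General macrophage genes were mixed between tumor and gland. Of 20, 2 rose and 6 fell in TN, and 3 rose and 5 fell in TNP, with medians of -0.45 and 0.17. These counts were near the shares of all genes, 12.8% higher and 22.3% lower in TN and 14.7% and 24% in TNP. The fractalkine receptor gene Cx3cr1 rose in both (log2 fold change 2.13 and 1.95), from 205 ± 51.9 normalized counts in MGN and 224 ± 117 in MGNP to 970.3 ± 484 in TN and 764 ± 32.9 in TNP. The LPS coreceptor gene Cd14 rose too (1.62 and 1.41), as did the Fc receptor gene Fcgr1 in TNP. Ptprc, which encodes the pan-leukocyte antigen CD45, had the deepest fall (-2.21 and -2.46), and Mertk, an efferocytosis receptor, fell as well (-1.78 and -1.44), as did Lyz2 in TN (-1.91) and Itgam in TNP (-1.27). Lymphocyte genes fell with Ptprc: of 8 T and NK cell genes 7 fell in TN (list median -3.53) and 6 in TNP (-2.89), and all 5 B cell genes fell in both (-4.64 and -5.52). T and NK cell genes took 0.00102% to 0.0166% of the reads in MGN and MGNP and 0.000303% to 0.00103% in tumors, with no gene at 0 throughout a group. Their part in the fall of Ptprc was not tested. Against MGWT 12 of 20 were higher and 1 lower in MGN, and 8 higher and 1 lower in MGNP, beside the shares of all genes given above.

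The list of 24 lipid-associated and tumor-associated macrophage genes did not move as a whole. In TN 2 of 22 tested rose and 6 fell, with a median of -0.21, and in TNP 7 of 21 rose and 5 fell, with a median of 0.01. Of all genes 12.8% were called higher and 22.3% lower in TN, and 14.7% and 24% in TNP. The risers were Cd9 (1.69) and the cathepsin inhibitor gene Cstb (1.03) in TN, and were led by Cd9 (2.14), the heme oxygenase gene Hmox1 (2.02) and the macrophage elastase gene Mmp12 (1.94) in TNP. The deepest falls were those of Lpl (-6.85 and -6.50), Cd36 (-4.26 and -3.35) and Mmp9 (-3.29 and -2.94). Lpl and Cd36 are also adipocyte genes, and Cd9 is also epithelial.

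**Figure D5:**
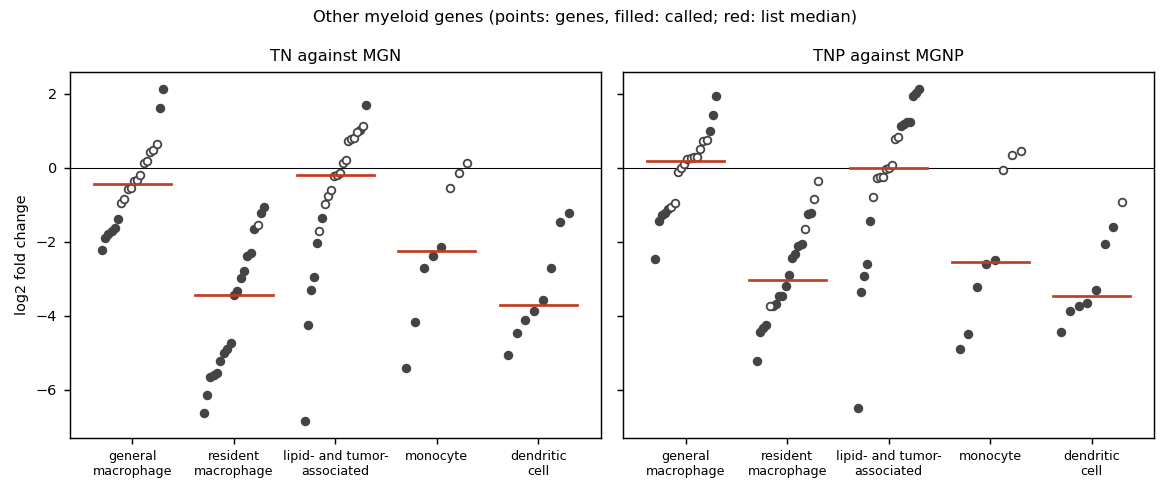
Log2 fold changes of the genes on 5 myeloid lists in TN against MGN and in TNP against MGNP, sorted within each list, with filled points for called genes and a red line at the list's median. The resident list lies below 0 throughout, with medians of -3.45 and -3.04, while general macrophage genes lie on both sides.

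Around the CSF1 receptor, 11 of 16 tested genes fell in TN and 1 rose, and 9 of 16 fell and 1 rose in TNP, beside the shares of all genes given above. The factor genes Cebpa (-4.03), Klf4 (-3.92) and Zeb2 (-3.74) fell most in TN, and Maf (-3.30), Zeb2 (-3.18) and Klf4 (-3.08) in TNP. Cebpb was the gene that rose (2.25 and 1.91). The second CSF1R ligand gene, Il34, fell in both (-1.02 and -1.61). Many of these factors also act in fat, endothelium and epithelium.

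The partners of the tumor-associated markers were divided, and their counts stand beside the shares of all genes given above. Of the TREM2 signalling genes 7 of 9 were tested, 0 rose, and 3 fell in TN and 2 in TNP, among them the kinase gene Syk (-2.43 and -2.79). Tyrobp, which encodes the adaptor DAP12 of TREM2, was not called (-0.62 and -0.07) and was higher in tumors than in MGWT (1.73). Of 8 genes for SPP1 receptors 3 rose and 1 fell in TN, and 2 rose and 1 fell in TNP, with Itga8 (3.68 and 3.19) and Itgb3 (2.01 and 2.21) up and Itga4 (-2.70 and -3.25) down. Of 10 genes of arginine metabolism 3 rose and 1 fell in TN and 4 rose and 1 fell in TNP, with the citrulline cycle genes Ass1 (3.48 and 3.38) and Asl (1.33 and 1.75) up and the arginine transporter gene Slc7a2 (-3.55 and -2.42) down.

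Genes of other myeloid cells were not called higher in tumors than in glands, and their counts stand beside the shares of all genes given above. Of 8 monocyte genes 5 fell and 0 rose in each comparison, among them Ly6c2 (-4.16 and -4.50). Dendritic cell genes fell 8 of 8 in TN and 7 of 8 in TNP, with Cd209a (-5.05 and -4.44) lowest. Of the 5 neutrophil genes tested in TN 2 fell, and of the 4 tested in TNP 2 fell. Between MGNP and MGN, between TNP and TN and in the interaction, 0 genes of all these lists were called by limma. In MGNP against MGN 12 of 20 resident genes had an unadjusted p under 0.05, as had 10.5% of all genes, with a list median of -0.99 beside the muscle, fibroblast and adipocyte values given above.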

How the data were processed

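RNA was measured in 19 mouse libraries, sequenced as paired reads on an Illumina instrument. The labels name a total RNA kit and the study's methods an mRNA kit. The authors aligned reads to GRCm38 with TopHat2 (2.1.1) and Bowtie2; the counting tool, annotation and strand setting are not given in the sources used here. The deposited values are a signal, gene counts that the authors divided by a size factor for each library, and whole reads were recovered from their steps. Gene names came from GENCODE vM21, which matched 45229 of 46078 identifiers.

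Pairwise comparisons used limma 3.58.1 in R 4.3.3 on log2(normalized count + 1), with Benjamini-Hochberg adjustment over all genes with at least 10 normalized counts in as many samples as the smaller group has. A call needed an adjusted p under 0.05 and a 2-fold change, and the interaction the adjusted p alone. Scripts were tested on simulated data. Alternatives included edgeR 4.0.16 and DESeq2 1.42.0 on the recovered reads. In the listed pathways up to 3 called genes with the largest and up to 3 with the smallest changes were named, and levels of a few of these were added after their values were seen. The members and lists were chosen with earlier results of these data known. Replicates are separate samples by label. Where they are not stated to be separate animals, p-values measure the spread between samples only. Same-numbered samples correlated at -0.29 to 0.31 in their deviations from group means. Groups this small cannot settle whether the numbers pair them, and the main fits treated the samples as unpaired. A gene that the naming rule would include is not reported here.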

Additional observations from a re-analysis of the deposited data

Results flagged for a closer look

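Of 40 sets of 4 libraries (10 members in 4 groups), 6 held a library far from the other 3, where chance flags about 1 in 20. All 6 were high. Spp1 gave 3 of them: MGN replicate 1 at 5725.3 normalized counts against 215.1 to 359.4 in the other MGN glands, MGNP replicate 2 at 5232.8 against 813.5 to 1184.6, and TNP replicate 4 at 43324 against 1431.3 to 7380.6. Csf1 was at 3569.7 in MGN replicate 2 against 1648.8 to 1765.3, Cd163 at 3530.4 in MGNP replicate 4 against 2154.3 to 2338.1, and Lyve1 at 134.2 in TNP replicate 2 against 47.4 to 57.2. The difference between the genotypes in the step from gland to tumor passed the threshold for 0 members.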

How the results depend on the processing

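With the skeletal muscle score as a covariate 3 members (8.86% of all genes) were called in MGNP against MGWT and 3 (23.6%) in TNP against MGNP. In both comparisons the groups did not overlap in that score. DESeq2 called 1 (2.92%) in MGNP against MGN. With each library left out in turn the count in MGNP against MGWT ran from 5 (25.3% of all genes) to 10 (31.7%). The cause of these changes was not tested. Directions that reversed were all of values that were not called. In TNP against MGNP, Cd68 was at -0.49 with the muscle covariate and -0.51 without the muscle-rich glands, and Adgre1 at 0.10 without the lymphoid-rich glands; in MGNP against MGN, Trem2 was at 0.11 without the muscle-rich glands. Both sets of glands were chosen after seeing the data. In TNP against TN, Csf1r was at -0.046 with edgeR and -0.056 with DESeq2, Cd163 at -0.10 and -0.12, and Cd68 at 0.051 with TNP replicates 1 and 2 averaged. With each library left out, log2 fold changes ran from -0.15 to 0.33 for Cd68 and -0.34 to 0.031 for Adgre1 in TNP against MGNP, and from -0.75 to 0.16 for Trem2 and -0.73 to 0.11 for Arg1 in MGNP against MGN. In TNP against TN they ran from -0.14 to 0.34 for Csf1r, -0.23 to 0.17 for Cd68, -0.11 to 1.13 for Cd163, -0.061 to 0.99 for Lyve1, -0.23 to 0.086 for Adgre1, -0.55 to 0.33 for Mrc1, -0.061 to 0.52 for Trem2 and -0.061 to 0.59 for Arg1. Of the values of single genes, 687 with a library left out and 930 under the other alternatives kept their direction and side of the threshold, and 18 and 17 lost a call. TMM scaling moved the median of all genes in TNP against MGNP from -0.071 to 0.032.

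With the replicate block 7 members (35.5% of all genes) were called in MGN against MGWT, 6 (26.5%) in MGNP against MGWT, 6 (33.2%) in TN against MGN, 5 (37.5%) in TNP against MGNP, 8 (44%) in all tumors against MGWT, and 0 (0%) in MGNP against MGN, in TNP against TN and in the interaction. The samples share only a number. Trem2 in MGWT rests on 12 to 15 reads a library.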
